A study of Mus musculus with 20 samples.

Results

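The genes described here encode receptor chains for cytokines that mucosal-associated invariant T (MAIT) cells make or that act on the macrophages next to them. They are Ifngr1, Ifngr2, Tnfrsf1a, Tnfrsf1b, Csf1r, Csf2ra, Csf2rb, Il10ra, Il17ra and Il17rc. The 10 genes were chosen by name for their role, without a threshold on the values, and all 10 were found among the 59311 genes of the table, of which 17248 were tested, including 9 of the 10. RNA was sequenced from 20 libraries of Ly6Chi and Ly6Clo monocyte-derived macrophages (MoMac), both sorted from each liver of 10 male C57BL/6 mice that had received CCl4, a liver toxin, for 4 weeks. Mice 11 to 15 received vehicle (DMSO in PBS) and mice 16 to 20 Ac-6-FP. Ac-6-FP is a folate derivative that occupies the presenting molecule MR1 and keeps MAIT cells inactive. Vehicle and Ac-6-FP were given before the last CCl4 injection and daily after it, and the cells were sorted after CCl4 had ended. All 4 groups carried the fibrotic injury, and no uninjured mouse is in the series. The sort kept CD11b+ F4/80+ cells and left out CD3+, CD11c+ and Ly6G+ cells. Comparisons were made for each receptor, Ly6Chi against Ly6Clo MoMac of the same mouse and Ac-6-FP against vehicle within each subset, and the Ac-6-FP change was then compared between the subsets.

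Interferon gamma binds a receptor made of the ligand-binding chain IFNGR1 and the signalling chain IFNGR2, and signals through JAK kinases to prime macrophages for antigen presentation and killing. TNF acts through TNFR1, a death domain receptor present on most cells, and TNFR2, which is richest on leukocytes. CSF1R is the receptor tyrosine kinase on which monocytes and macrophages depend for survival, GM-CSF acts through CSF2RA paired with the common beta chain, IL-10 through IL10RA paired with IL10RB, and IL-17A through IL17RA paired with IL17RC. In the fibrotic liver, Ly6Chi MoMac are the newly recruited inflammatory cells and Ly6Clo MoMac the later, restorative ones.

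The libraries held between 5693049 and 18682437 reads counted on genes, and between 5343 and 15766 genes with a value above 0. The 6 libraries of vehicle mice 12, 13 and 14 held 5343 to 10379 such genes and the 14 others 11096 to 15766. The poorest was the Ly6Clo library of mouse 13, in which 2765 of 6652 well-read genes (median over libraries 100 or more) had a value of 0. Ly6c2, which encodes the sorting antigen, was at 7403 ± 1691 normalized counts (SD, n = 10) in Ly6Chi and 688 ± 198 (SD, n = 10) in Ly6Clo libraries. Of the other sorting genes, Itgam (CD11b) was at 1680.3 ± 689 and 2118 ± 1238, and Adgre1 (F4/80) at 2693 ± 552 and 3104 ± 1890.2 (SD, n = 10 each). At a limma adjusted p under 0.05, all 6 genes of a Ly6Chi monocyte list were higher in Ly6Chi libraries and 3 of 6 genes of a Ly6Clo list (Cd36, Ace and Treml4) in Ly6Clo libraries, where 5 of the 6 had the higher mean on the log2 scale. Markers of other cells also separated the subsets. The summed normalized count of 8 T and NK cell genes lay between 0 and 812 in Ly6Chi libraries and between 39897 and 87939 in Ly6Clo libraries, led by Gzma and Nkg7, with Cd3e at 0 in 10 and 8 libraries. The sum of 8 dendritic cell genes lay between 83.8 and 535 in Ly6Chi and between 8890.0 and 22243 in Ly6Clo libraries. Itgax, which encodes the CD11c that was gated out, was at 0 in all 10 Ly6Chi libraries and at 1640.3 ± 992 (SD, n = 10) in Ly6Clo libraries. For 10 neutrophil genes the sums overlapped, at 8756 to 15095 and 10463 to 135065. Of these, 8 had the higher log2 mean in Ly6Clo libraries and 5 of them passed the same threshold, whereas Mmp8 was higher in Ly6Chi libraries in 10 of 10 mice (means 7356 and 506, limma adjusted p = 0.00317). In bulk libraries, fewer cells of one type and less RNA per cell cannot be told apart, and the part of these other cells in the receptor values was not tested.

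Promoters of the chains that carry the comparisons below are shown first, as the 250 bases before the transcription start from RefSeq (build GRCm38.p6, 5′ to 3′ on the gene's strand), a table in which 6 of the 10 genes had an entry. The chains of the interferon gamma receptor and both TNF receptors are given because they include the most abundant receptor transcript and the chain that separated Ac-6-FP from vehicle libraries in Ly6Chi MoMac. Capitals mark matches on either strand to GAGGAA (the core bound by PU.1, the transcription factor of the myeloid lineage), GGGCGG (a GC box), TTCNNNGAA (the element read by STAT factors) or TATAAA.
Ifngr1, chr10:19591699-19591948 (plus strand): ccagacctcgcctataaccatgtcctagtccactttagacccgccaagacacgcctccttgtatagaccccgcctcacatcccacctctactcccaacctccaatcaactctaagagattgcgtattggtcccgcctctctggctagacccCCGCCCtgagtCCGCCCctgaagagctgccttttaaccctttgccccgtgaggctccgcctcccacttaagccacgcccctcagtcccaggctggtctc
Ifngr2, chr16:91546809-91547058 (plus strand): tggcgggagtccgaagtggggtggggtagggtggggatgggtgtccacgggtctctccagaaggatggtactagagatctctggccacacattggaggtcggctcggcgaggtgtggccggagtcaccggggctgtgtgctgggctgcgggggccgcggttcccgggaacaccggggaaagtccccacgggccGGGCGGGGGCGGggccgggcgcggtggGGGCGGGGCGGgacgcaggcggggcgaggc
Tnfrsf1a, chr6:125349473-125349722 (plus strand): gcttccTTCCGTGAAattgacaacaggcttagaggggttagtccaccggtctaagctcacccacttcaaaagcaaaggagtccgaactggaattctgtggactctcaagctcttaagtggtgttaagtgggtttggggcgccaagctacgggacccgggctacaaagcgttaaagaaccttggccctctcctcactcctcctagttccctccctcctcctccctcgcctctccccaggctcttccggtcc
Tnfrsf1b, chr4:145246871-145247120 (minus strand): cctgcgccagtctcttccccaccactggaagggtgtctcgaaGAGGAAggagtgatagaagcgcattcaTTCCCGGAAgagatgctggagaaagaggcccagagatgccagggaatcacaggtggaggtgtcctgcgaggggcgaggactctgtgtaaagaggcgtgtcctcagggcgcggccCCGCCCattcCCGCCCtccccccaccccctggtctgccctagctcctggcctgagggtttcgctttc

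The GC box had 2 matches in the Ifngr1 promoter, 4 in that of Ifngr2, 2 in that of Tnfrsf1b and 0 in that of Tnfrsf1a, against at least 1 match in 32.7% of 32851 promoters of the same length. The STAT element had 1 match each in the Tnfrsf1a and Tnfrsf1b promoters, against 7.02% of all promoters. The PU.1 core was found in the Tnfrsf1b promoter alone of these 4, and in that of Csf2ra, against 23.3% of all promoters. TATAAA was in none of the 6 promoters read, and in 12.4% of all. The last 2 GC boxes of Ifngr2 share 1 base. A match is a run of letters and says nothing of binding.

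Compared per kilobase of merged exon (GENCODE M21, mm10), the median level had the same order in both subsets. Ifngr1 came first with a median of 2645 normalized counts per kilobase in Ly6Chi and 3794 in Ly6Clo libraries (n = 10 each). Csf1r followed with 1140 and 1653 and Tnfrsf1a with 358 and 218. Within a library, Ifngr1 was above Csf1r and Csf1r above Tnfrsf1a in all 10 mice in both subsets, although the ranges over mice overlapped. Ifngr2 (73.0 and 49.8), Tnfrsf1b (73 and 48.7) and Csf2ra (50.5 and 46.6) lay close together, and each of the 2 steps between them went both ways among the mice of either subset. Il10ra (32.4 and 37.2) and Csf2rb (26.7 and 26.6) were likewise not separated, as Il10ra was the higher in 4 mice and the lower in 4 among Ly6Chi libraries, and the higher in 2 and the lower in 6 among Ly6Clo libraries, against the order of the medians. Il17ra (4.10 and 5.86) and Il17rc (0 and 0) came last. The length counted by the authors, the constitutive part of each gene, is not given in the sources used here, so these levels per kilobase are approximate.

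**Figure D1:**
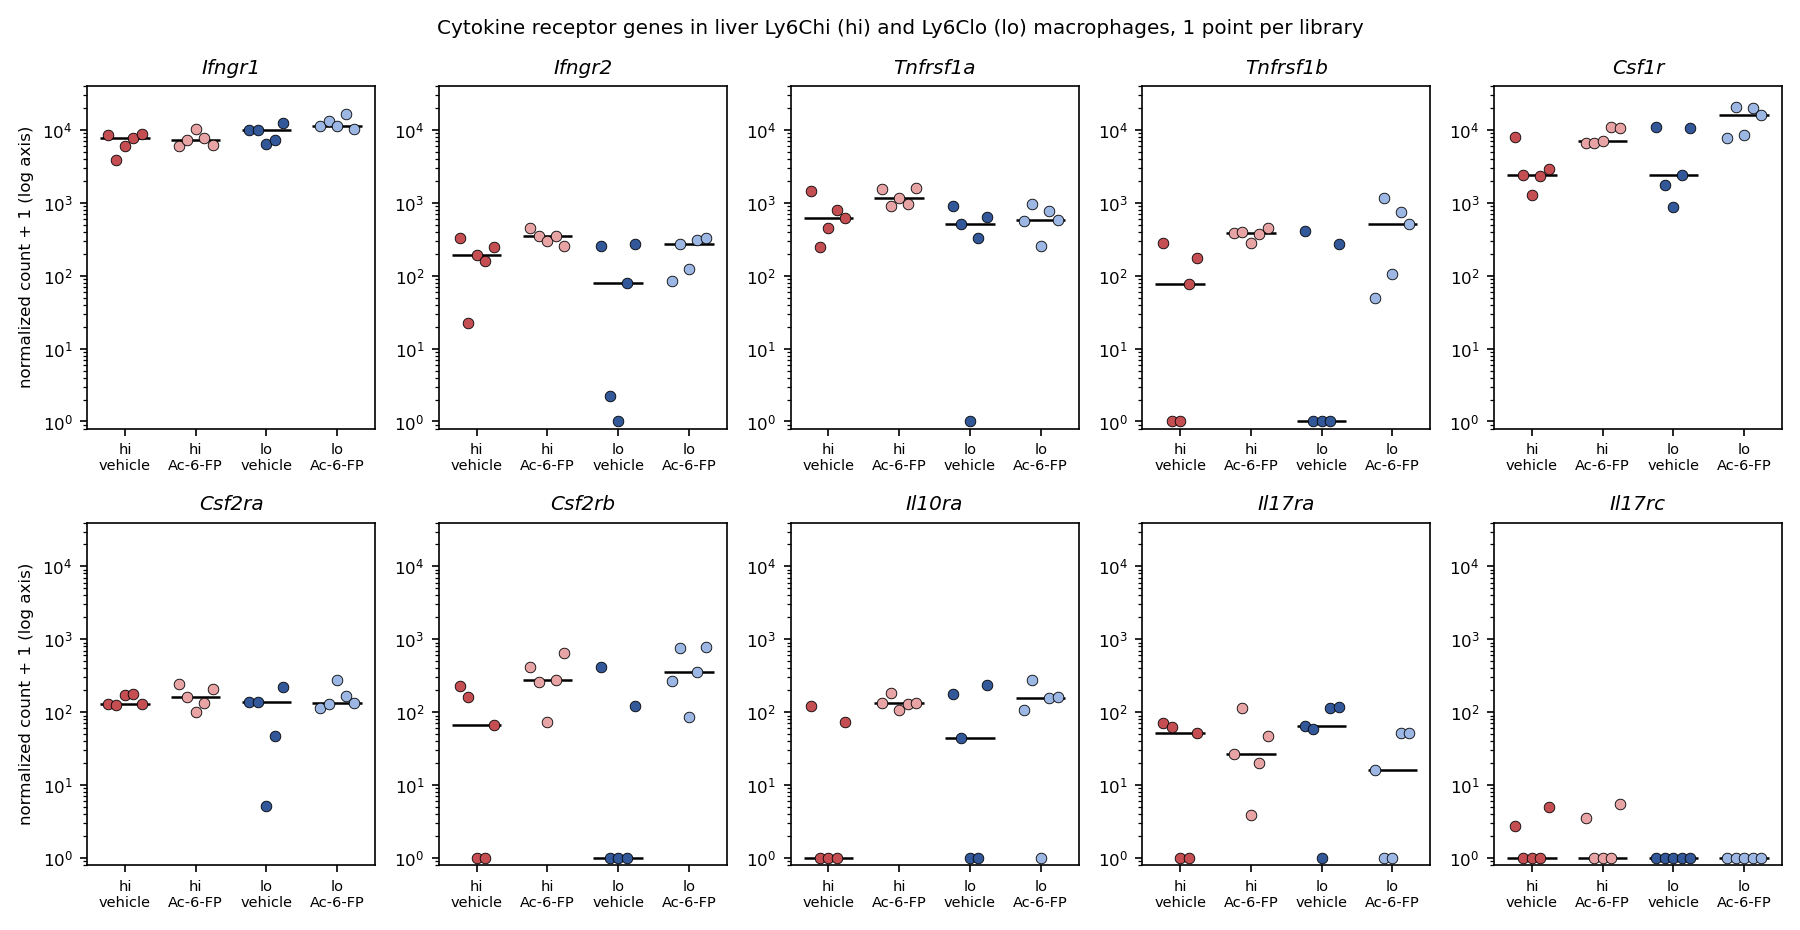
Normalized count plus 1 (log axis) of the 10 receptor genes in each library, in mouse order within each of the 4 groups of 5, with the group median as a bar. Ifngr1 and Csf1r are read in all 20 libraries, while Tnfrsf1b, Csf2rb and Il10ra are listed at 0 in 5, 5 and 6 libraries and Il17rc in 16.

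Between the subsets, 1 of the 9 receptor genes tested differed. Ifngr1 was higher in Ly6Clo than in Ly6Chi MoMac, in 9 of 10 mice, and no receptor was higher in Ly6Chi MoMac by the same test. Over all genes tested, 5.19% were called in this comparison and 3.44% in the direction of Ly6Clo (limma on within-mouse differences of log2(normalized count + 1), adjusted p under 0.05), and the receptors' count of 1 of 9 rests on a single gene. The median log2 difference, Ly6Chi minus Ly6Clo, was 0.38 over the 9 receptors and -0.03 over all genes tested. With Ac-6-FP, 0 of 9 receptors passed the adjusted threshold in either subset, against 0.0754% of all genes in Ly6Chi and 0.0522% in Ly6Clo MoMac (limma). At an unadjusted p under 0.05 there were 4 of 9 receptors in each subset, beside 1506 and 1605 of all 17248 genes, and edgeR gave 1 receptor in each, beside 1541 and 1614 genes. The comparison of the Ac-6-FP change between subsets called 0 receptors, and 0% of all genes (840 genes and 0 receptors at an unadjusted p under 0.05). edgeR called 0 receptors in all 4 comparisons.

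Ifngr1 (chr10:19591949-19610233, mm10) was the one receptor that differed between the subsets. In Ly6Chi MoMac it was at 8529.7, 3903, 6021, 7798 and 8658 normalized counts in vehicle mice 11 to 15 and at 6044, 7264, 10370.0, 7821 and 6249.6 in Ac-6-FP mice 16 to 20. The Ly6Clo libraries of the same mice gave 10096, 9954, 6495, 7263 and 12291 with vehicle and 11358, 13236, 11192, 16749 and 10408 with Ac-6-FP. Mouse 14 alone had the higher value in its Ly6Chi library, and all 5 Ac-6-FP mice had the higher value in Ly6Clo. Mean levels were 7266 ± 1799.7 (SD, n = 10) in Ly6Chi and 10904 ± 2912 (SD, n = 10) in Ly6Clo MoMac, a log2 difference, Ly6Chi minus Ly6Clo, of -0.58 (standard error 0.14, limma adjusted p = 0.0296). Of all genes tested, 4.81% were higher in Ly6Clo libraries in at least 9 of 10 mice. The direction held under every alternative (log2 difference between -0.66 and -0.50), but the call did not. Its adjusted p was 0.0507 without a filter on low genes, 0.0756 by edgeR and 0.0685 to 0.0944 when mouse 12, 15, 16, 17, 19 or 20 was left out (without mouse 15 by edgeR, 0.199). The summed T and NK cell and dendritic cell genes are higher in the same Ly6Clo libraries, the neutrophil genes went both ways, and the part of these cells in the Ifngr1 difference was not tested.

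With Ac-6-FP, Ifngr1 overlapped between the groups in both subsets. In Ly6Chi MoMac the log2 difference from vehicle was 0.14 (standard error 0.25, limma adjusted p = 0.882), a sign that turned to -0.05 without mouse 12. In Ly6Clo MoMac it was 0.47 (standard error 0.20, limma adjusted p = 0.532), below the median of all genes there, 0.91. The test of the change in one subset against the other gave no call (difference -0.32, standard error 0.27, limma adjusted p = 0.830). The Ifngr1 level was 3903 to 9954 in the 6 libraries of mice 12 to 14 and 6044 to 16749 in the 14 others.

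Ifngr2 (chr16:91547070-91571097), the signalling chain, was the higher in Ly6Chi MoMac in 8 of 10 mice. Its Ly6Chi levels were 330.1, 21.4, 189, 160.5 and 244 with vehicle and 445, 350.3, 299, 344 and 251 with Ac-6-FP. The Ly6Clo levels were 253, 1.24, 0, 79.1 and 269 with vehicle and 84.2, 273, 122, 311 and 326 with Ac-6-FP. Mice 12 and 13 had the lowest Ly6Clo values, 1 and 0 reads, which do not exceed the 3 reads that a value of 0 allows. Ly6Chi minus Ly6Clo was 1.60 on the log2 scale (standard error 0.73, limma adjusted p = 0.291) and 0.93 (adjusted p = 0.265) without mouse 13. With detected genes as a covariate it was 2.00 and passed the threshold (limma adjusted p = 0.0259). The means of the 2 chains of the interferon gamma receptor thus lay on opposite sides of 0 between the subsets, and only that of Ifngr1 passed without the covariate. With Ac-6-FP, the log2 difference of Ifngr2 from vehicle was 1.24 (standard error 0.67, limma adjusted p = 0.652) in Ly6Chi and 2.91 (standard error 1.68, limma adjusted p = 0.564) in Ly6Clo MoMac, and the groups overlapped in both. With the covariate these values were 0.52 and 0.71, and they were 0.58 in Ly6Chi without mouse 12 and 1.73 in Ly6Clo MoMac without mouse 13.

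**Figure D2:**
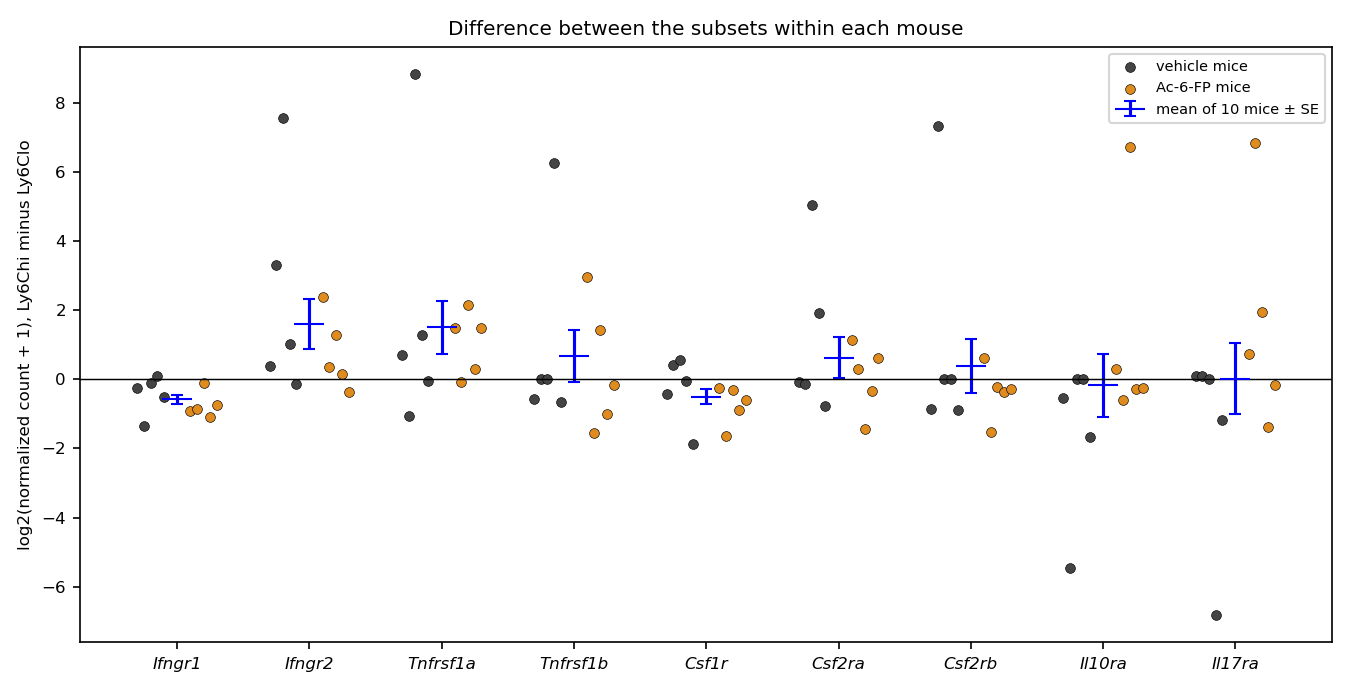
Difference of log2(normalized count + 1), Ly6Chi minus Ly6Clo, for the 9 receptors tested, with 1 point per mouse (5 vehicle, 5 Ac-6-FP) and the mean of 10 mice with its standard error. Ifngr1 lies below 0 in 9 of 10 mice with little spread, and the largest single differences of Ifngr2, Tnfrsf1a and Csf2ra come from mouse 13, that of Tnfrsf1b from mouse 14 and that of Csf2rb from mouse 12.

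Neither TNF receptor passed the threshold in any of the 4 comparisons without a covariate. Tnfrsf1a (chr6:125349723-125362484), which encodes TNFR1, was at 1457, 247, 456, 796 and 614 in Ly6Chi vehicle libraries and at 1568, 910.2, 1144, 947 and 1602 with Ac-6-FP. In Ly6Clo MoMac it was at 899, 514, 0, 325 and 631 with vehicle and 558, 952, 258, 762 and 572 with Ac-6-FP. The value of 0 belongs to mouse 13, and no other library had fewer than 216 reads of Tnfrsf1a. Ly6Chi values were the higher in 7 of 10 mice (log2 difference 1.51, standard error 0.77, limma adjusted p = 0.346). Leaving out mouse 13 gave 0.69 (adjusted p = 0.258), and detected genes as a covariate gave 2.04 (limma adjusted p = 0.00156). For Ac-6-FP against vehicle the log2 difference was 0.99 (standard error 0.43, limma adjusted p = 0.569) in Ly6Chi MoMac, where only the vehicle value of mouse 11 reached into the Ac-6-FP range. In Ly6Clo MoMac it was 1.86 (standard error 1.73, limma adjusted p = 0.613), and 0.04 without mouse 13. The covariate gave 0.29 in Ly6Chi and -0.52 in Ly6Clo MoMac.

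Tnfrsf1b (chr4:145212368-145246871), which encodes TNFR2, was the receptor whose Ly6Chi groups did not overlap. Ly6Chi vehicle libraries were at 276, 0, 0, 76.4 and 171, and those with Ac-6-FP at 383, 393, 281, 374 and 447, so that each Ac-6-FP library exceeded the highest vehicle library. This held for 0.968% of all genes tested and for 1 of 9 receptors. The log2 difference was 4.18 (standard error 1.72, limma adjusted p = 0.544), with 2 vehicle libraries at 0, and it was 1.92 with detected genes as a covariate. Ly6Clo libraries were at 410.2, 0, 0, 0 and 268 with vehicle and at 48.2, 1149, 104, 751 and 504 with Ac-6-FP. Here the groups overlapped (log2 difference 4.86, standard error 2.10, limma adjusted p = 0.532), and 0 of 9 receptors had every Ac-6-FP library above every vehicle library in Ly6Clo MoMac, against 1.29% of all genes. All 5 values of 0 belong to mice 12, 13 and 14, whose libraries held the fewest genes. Between the subsets the difference was 0.67 (standard error 0.75, limma adjusted p = 0.645), with the higher value in the Ly6Chi library of 3 mice and in the Ly6Clo library of 5, and it was 0.05 without mouse 14.

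Csf1r (chr18:61105571-61132149), the receptor for CSF1 and IL-34, had the lowest unadjusted p of the receptors for Ac-6-FP. Its Ly6Chi levels were 8062, 2381, 1284, 2325 and 2868 with vehicle and 6614, 6553, 7011, 10896 and 10461 with Ac-6-FP. Ly6Clo levels were 10787, 1770.4, 874, 2384 and 10466 with vehicle and 7824, 20548, 8626, 20039 and 15889.6 with Ac-6-FP. In both subsets mice 12, 13 and 14 were the lowest. Vehicle mouse 11 lay within the Ac-6-FP range in both subsets, and mouse 15 did so in Ly6Clo MoMac. The Ly6Chi difference was 1.54 on the log2 scale (standard error 0.44, limma adjusted p = 0.397), or 1.19 above the median of all genes. Without mouse 11 it was 1.93 and passed the threshold (standard error 0.27, limma adjusted p = 0.0217). With detected genes as a covariate it was 0.77 (limma adjusted p = 1). In Ly6Clo MoMac the difference was 2.01 (standard error 0.72, limma adjusted p = 0.528), 1.53 without mouse 13 and 0.93 with the covariate.

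Csf1r was lower in the 6 libraries with the fewest genes detected. These libraries of mice 12 to 14, with 5343 to 10379 genes, held 874 to 2384 normalized counts of Csf1r. The 14 others, with 11096 to 15766 genes, held 2868 to 20548. This split was made after detection was seen. The share of all genes that it separates was not counted, so the gap is not read as particular to Csf1r. The recovered reads of Csf1r were 419 or more in every library. The part of library quality in the Csf1r difference was not tested beyond the covariate. Between the subsets, Csf1r was higher in Ly6Clo MoMac in 8 of 10 mice, 5 of 5 with Ac-6-FP and 3 of 5 with vehicle (log2 difference, Ly6Chi minus Ly6Clo, -0.50, standard error 0.22, limma adjusted p = 0.276). GENCODE places 873 bases of Csf1r exon (15.1%) over exons of Hmgxb3 on the opposite strand, and whether strand was used in the counting is not given in the sources used here.

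**Figure D3:**
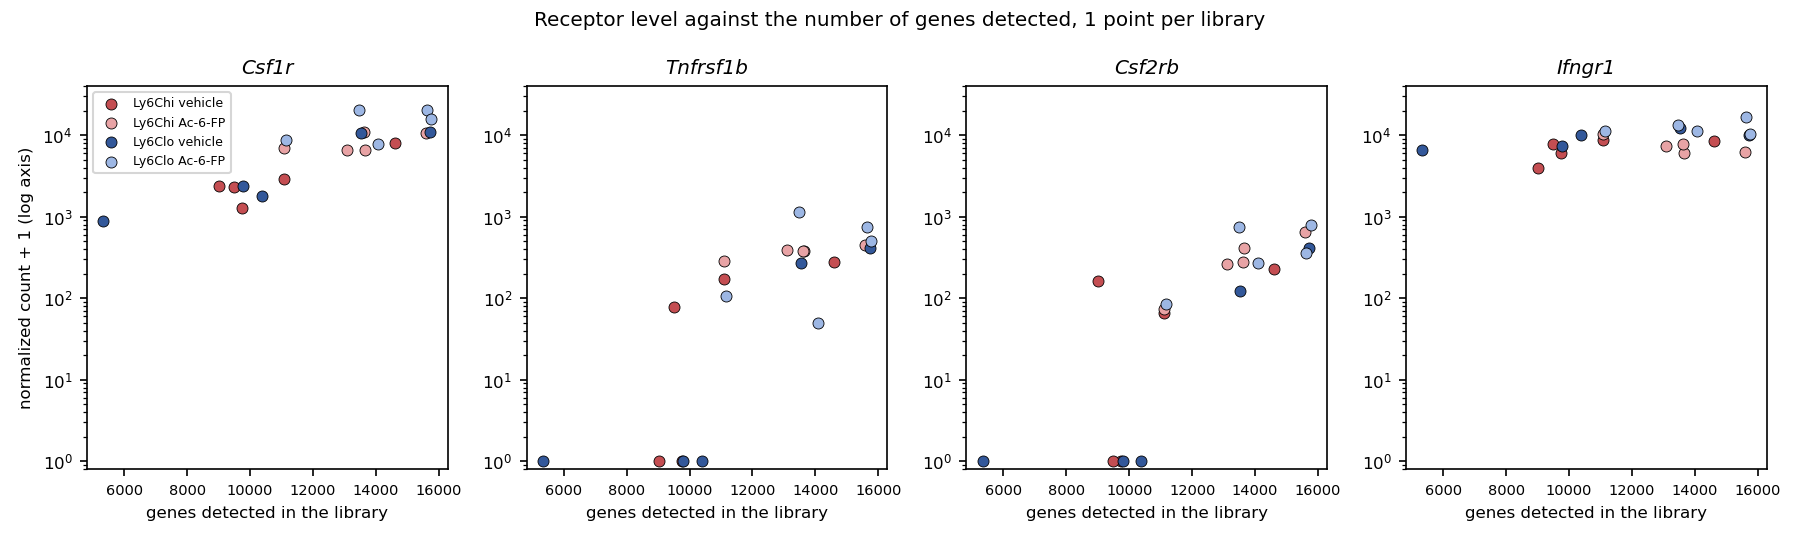
Normalized count plus 1 (log axis) of Csf1r, Tnfrsf1b, Csf2rb and Ifngr1 against the count of genes above 0, 1 point per library, coloured by group. Csf1r lies at 874 to 2384 in the 6 libraries with 5343 to 10379 genes and at 2868 to 20548 in the others. Ifngr1 ranges from 3903 to 16749 without such a gap. The share of all genes with such a gap was not counted.

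The receptor for GM-CSF gave unlike values for its 2 chains. Csf2ra (chr19:61223957-61228418), the chain that binds GM-CSF alone, was read in all 20 libraries. It was at 127, 123, 169, 179 and 128 in Ly6Chi vehicle libraries and at 245, 159, 101, 131 and 206 with Ac-6-FP. In Ly6Clo MoMac it was at 135, 135, 4.17, 46.2 and 220.2 with vehicle and at 112, 130.1, 273, 166 and 133 with Ac-6-FP. Apart from the Ly6Clo libraries of mice 13 and 14, all values lay between 101 and 273, and the groups overlapped. The Ac-6-FP difference was 0.16 (standard error 0.27, limma adjusted p = 0.870) in Ly6Chi and 1.30 (standard error 0.98, limma adjusted p = 0.613) in Ly6Clo MoMac, and both turned below 0 after quantile normalization (-0.02 and -0.26). The subset difference was 0.62 (standard error 0.59, limma adjusted p = 0.619) and 0.13 without mouse 13.

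Csf2rb (chr15:78325798-78353847), the beta chain shared by the receptors for GM-CSF, IL-3 and IL-5, was listed at 0 in 5 of 10 vehicle libraries and in 0 of 10 with Ac-6-FP. Ly6Chi libraries were at 227, 162, 0, 0 and 65.3 with vehicle and at 409, 261, 72.7, 278 and 651 with Ac-6-FP. Ly6Clo libraries were at 416, 0, 0, 0 and 121 with vehicle and at 267, 755, 84.9, 358 and 787 with Ac-6-FP. Vehicle mice 11 and 12 in Ly6Chi and 11 and 15 in Ly6Clo MoMac lay within the Ac-6-FP range, and 5 of the 6 libraries of mice 12 to 14 were at 0. The log2 difference was 3.83 (standard error 1.74, limma adjusted p = 0.582) in Ly6Chi and 5.31 (standard error 1.91, limma adjusted p = 0.528) in Ly6Clo MoMac. With detected genes as a covariate it was 1.63 and 2.63. Its size depended on the pseudocount, at 5.16 and 7.30 with 0.1 and 2.50 and 3.34 with 10, and edgeR gave 1.87 and 2.02. In Ly6Chi MoMac the alternatives ranged likewise from 1.83 to 5.51 for Tnfrsf1b and from 1.79 to 6.44 for Il10ra. Ly6Chi minus Ly6Clo was 0.38 (standard error 0.79, limma adjusted p = 0.821) and turned to -0.39 without mouse 12.

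Csf2rb has a near-identical neighbour, Csf2rb2 (chr15:78282507-78305721), the beta chain of the IL-3 receptor in mice, and the split of reads between the pair is uncertain. The longest coding sequence of Csf2rb holds 2614 windows of 75 bases, 1 read length. Of these, 413 (15.8%) were found letter for letter in the coding sequences of Csf2rb2 transcripts (GENCODE M21). Untranslated parts were not compared. The longest shared run is 242 bases long, from coding base 2083 to 2324 of Csf2rb. It is shown because a read that falls within it cannot by itself be given to one gene. Reads were sequenced in pairs, so a mate outside the run may place it, and pairs were not examined.
Csf2rb and Csf2rb2: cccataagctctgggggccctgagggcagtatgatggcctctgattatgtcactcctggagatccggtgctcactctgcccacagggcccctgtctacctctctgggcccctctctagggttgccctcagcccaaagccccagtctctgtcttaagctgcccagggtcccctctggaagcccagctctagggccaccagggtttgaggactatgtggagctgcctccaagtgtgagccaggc
Csf2rb2 itself was at 0 in 9 libraries and at most at 146 in the others.

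Il10ra (chr9:45253838-45269151), the ligand-binding chain for IL-10, which restrains macrophage activation, was low. Ly6Chi vehicle libraries were at 121, 0, 0, 0 and 72.2, and those with Ac-6-FP at 132, 181, 106, 127 and 133. In this subset only mouse 11 kept the groups from separating. The log2 difference was 4.45 (standard error 1.59, limma adjusted p = 0.543), with 3 vehicle libraries at 0, and 1.99 with the covariate. Ly6Clo libraries were at 177, 43.4, 0, 0 and 232 with vehicle and at 106, 277, 0, 154 and 159 with Ac-6-FP, which overlap (log2 difference 1.73, standard error 2.19, limma adjusted p = 0.711), and the sign turned with the covariate (-1.20). The comparison of the change between the subsets gave 2.72 (standard error 1.75, limma adjusted p = 0.830). Ly6Chi minus Ly6Clo was -0.18 (standard error 0.92, limma adjusted p = 0.936), and 0.41 without mouse 12.

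The IL-17 receptor chains were the least abundant. Il17ra (chr6:120463197-120483729) was at 69.0, 62.1, 0, 0 and 51.4 in Ly6Chi vehicle libraries and at 25.6, 114, 2.83, 18.9 and 45.5 with Ac-6-FP. Ly6Clo libraries were at 64.4, 58.2, 0, 113 and 117 with vehicle and at 15.1, 0, 0, 50.5 and 51.0 with Ac-6-FP. High and low libraries were found in every group, and no library held more than 139 reads. The Ac-6-FP difference was 1.11 (standard error 1.67, limma adjusted p = 0.848) in Ly6Chi and -2.05 (standard error 1.81, limma adjusted p = 0.613) in Ly6Clo MoMac. With detected genes as a covariate these values were -0.76 and -4.23 (limma adjusted p = 0.949 for the latter), and the Ly6Clo value was -3.35 after quantile normalization and -3.33 without mouse 13. Their difference, 3.16 (standard error 1.93, limma adjusted p = 0.830), did not pass. Between the subsets it was 0.02 (standard error 1.03, limma adjusted p = 0.995), a sign that changed with the pseudocount.

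Il17rc (chr6:113471455-113483163) did not reach the mean of 10 needed for testing. It was at 1.77, 0, 0, 0 and 3.96 in Ly6Chi vehicle libraries and at 2.50, 0, 0, 0 and 4.47 with Ac-6-FP, at most 6 reads. All 10 Ly6Clo libraries were at 0. A count of 0 allows up to 3 reads per library. Without the filter on low genes, Ly6Chi minus Ly6Clo was 0.80 on the log2 scale (standard error 0.34, limma adjusted p = 0.333), the higher in Ly6Chi in 4 mice and equal at 0 in the other 6.

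**Figure D4:**
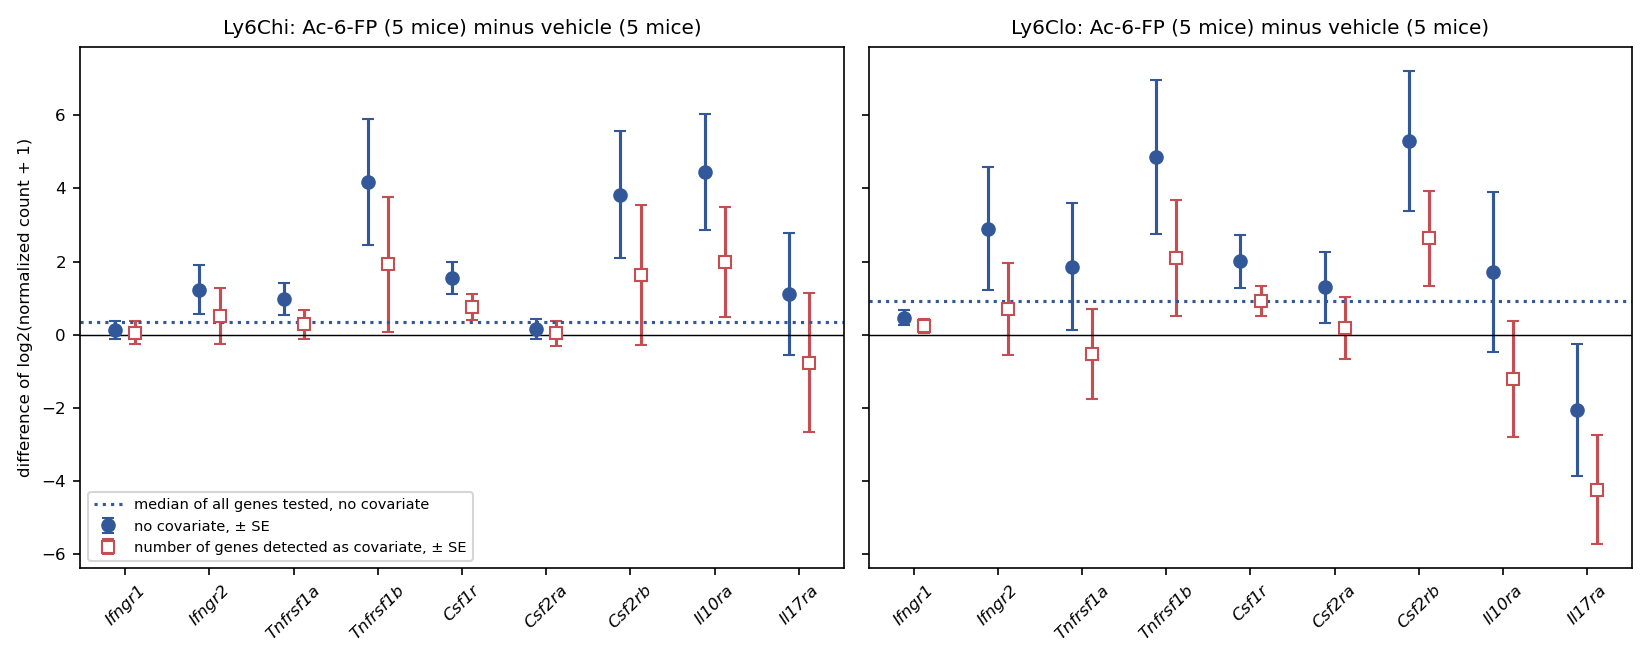
Difference of log2(normalized count + 1), Ac-6-FP minus vehicle (5 mice each), for the 9 receptors tested in Ly6Chi (left) and Ly6Clo (right) MoMac, with standard errors, without a covariate (filled) and with detected genes as a covariate (open). The dotted line marks the median of all genes without the covariate, 0.35 and 0.91, and the open symbols of Csf1r lie at 0.77 and 0.93. Csf2ra turns below 0 in both subsets after quantile normalization.

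As a group, the receptors had positive Ac-6-FP differences in 9 of 9 genes in Ly6Chi and 8 of 9 in Ly6Clo MoMac, with medians of 1.24 and 1.86 on the log2 scale. The whole table was shifted in the same direction, with medians of 0.35 and 0.91 and 62.9% and 70.5% of genes above 0. Relative to those medians, 7 of 9 receptors were above and 2 below in each subset. Quantile normalization brought the median of all genes to -0.01 and 0.02 and left 8 and 7 of 9 receptors above 0 (medians 0.96 and 1.14). The covariate brought the median of all genes to 0.01 and 0.06 and left 8 and 6 receptors above 0 (medians 0.52 and 0.25). Most receptors share the libraries at 0 of mice 12 to 14, so these counts are not independent of one another, and the 2 subsets come from the same mice. Several marker lists of other cells had medians above 0 with Ac-6-FP as well, with 0 of their genes called by limma at the adjusted threshold, while the dendritic cell genes had a median of -0.34 in Ly6Chi MoMac. In Ly6Clo MoMac the median log2 differences were 3.84 for Kupffer cell genes (4 of 5 above 0), 2.57 for endothelial (5 of 5), 2.47 for neutrophil (9 of 10) and 2.00 for B cell genes (5 of 5). In Ly6Chi MoMac the T and NK cell genes had a median of 2.09 (7 of 7 above 0), at sums of 0 to 457 with vehicle and 132 to 812 with Ac-6-FP. The part of these cells in the receptor values was not tested.

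Other genes of the same pathways were read from lists fixed with the receptors. Of 5 further chains, Il10rb, Csf2rb2, Il17rb, Il17rd and Il17re, 2 were tested and 0 passed in any of the 4 comparisons. Il10rb, the partner of IL10RA, was at 419 ± 176 in Ly6Chi and 908 ± 302 in Ly6Clo libraries (SD, n = 10), the higher in Ly6Clo in 9 of 10 mice (log2 difference -1.19, standard error 0.34, limma adjusted p = 0.0666). Il17re was at 0 in all 20 libraries.

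Of 9 ligand genes, 4 were tested and 2 were higher in Ly6Clo libraries, none in Ly6Chi libraries. Il10 was at 7.26 ± 22.9 in Ly6Chi and 802 ± 587 in Ly6Clo libraries (SD, n = 10), a log2 difference of -7.98 (standard error 1.05, limma adjusted p = 0.000426) seen in 9 of 10 mice. The summed T and NK cell and dendritic cell genes were higher in the same Ly6Clo libraries, and the part of such cells in the Il10 value was not tested. Ifng, the ligand of IFNGR1, was at 1.49 ± 4.71 and 702 ± 536 (SD, n = 10), a log2 difference of -7.25 (standard error 1.19, limma adjusted p = 0.00229) seen in 8 of 10 mice. Interferon gamma is a product of NK and T cells, whose genes Gzma, Nkg7, Klrb1c, Ncr1 and Cd247 were higher in the same 10 Ly6Clo libraries; the part of such cells in the Ifng value was not tested. Il17a, Il17f, Csf2 and Il34 were at 0 in all 20 libraries. Tnf was at 16.1 in Ly6Chi and 96.2 in Ly6Clo libraries on average, without a call (limma adjusted p = 0.293).

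Downstream of the receptors, 0 of 18 kinases, adaptors and STAT factors, 0 of 10 feedback inhibitors and 0 of 17 genes induced by interferon gamma passed between the subsets. Their median log2 differences, Ly6Chi minus Ly6Clo, were 0.47, -1.33 and -0.10. Among 19 tested genes of a list of other cytokine receptors of myeloid cells, 4 were higher in Ly6Clo libraries and 0 in Ly6Chi libraries. Il2rg, the common gamma chain, was at 5392 ± 1114 and 23810 ± 4608 (SD, n = 10; log2 difference -2.15, standard error 0.09, limma adjusted p = 2.18e-08), higher in all 10 mice. NK and T cells also express Il2rg and Il18r1, and Gzma (means 34.0 and 24663) and Nkg7 (131 and 21720) were higher in the same Ly6Clo libraries; the part of such cells was not tested. Flt3, a receptor of dendritic cells and progenitors and also one of the dendritic cell markers above, was at 15.9 ± 28.7 and 166 ± 66.4 (limma adjusted p = 0.00168). Il18r1 and Il5ra were at 0 in all 10 Ly6Chi libraries and at 91.9 ± 83.8 and 126 ± 151 in Ly6Clo libraries (SD, n = 10, limma adjusted p = 0.0108 and 0.0441). Il5ra was also at 0 in 4 of the 10 Ly6Clo libraries, and the part of other cells in its value was not tested. No gene of these lists passed for Ac-6-FP in either subset or for the comparison of the changes.

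**Figure D5:**
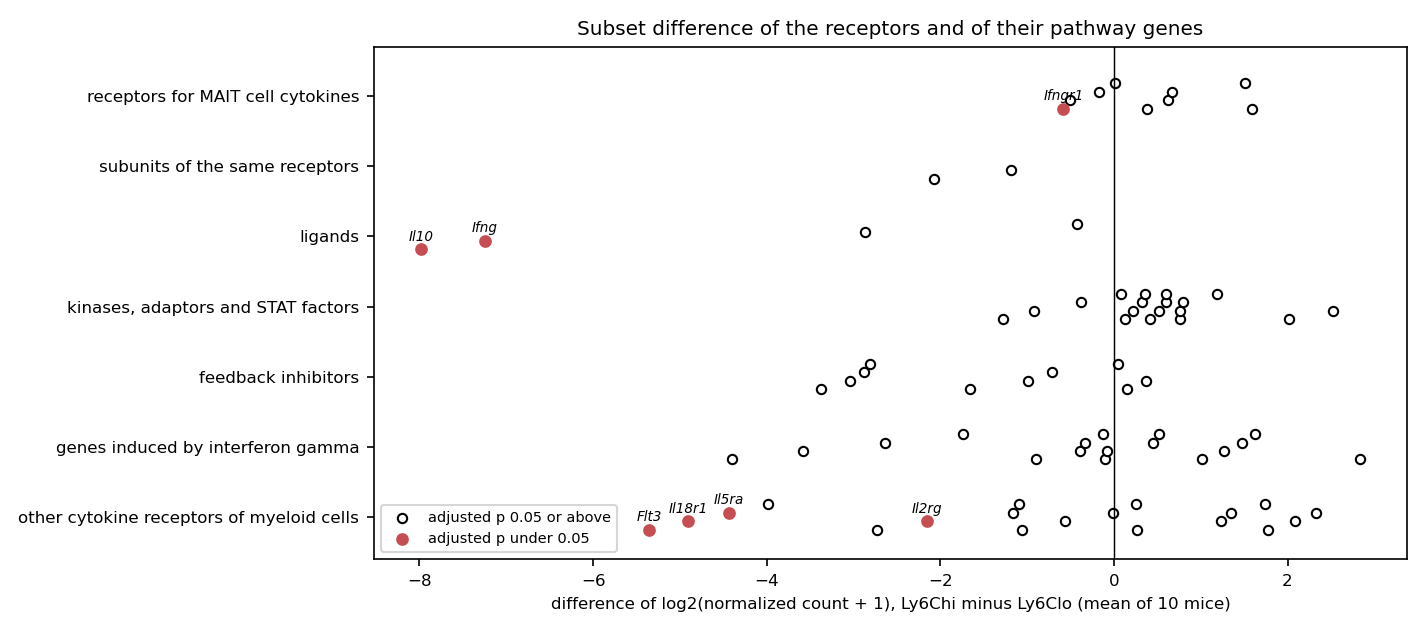
Difference of log2(normalized count + 1), Ly6Chi minus Ly6Clo (mean of 10 mice), for the receptors and the tested genes of 6 pathway lists, 1 point per gene, filled where the adjusted p is under 0.05. The 7 filled points, Ifngr1 among them, all lie below 0, on the side of Ly6Clo MoMac.

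Over the 20 libraries, the gene whose log2 level was most like that of Ifngr1 was Cfb, which encodes complement factor B (Pearson r = 0.90), followed by Itgb2, the beta chain of CD11b/CD18 (r = 0.85), among 5813 genes with a symbol and a mean of at least 100. Csf1r was most like Myo1g (r = 0.93) and Shisa5 (r = 0.93), Csf2rb most like Ilvbl (r = 0.98) and Tars2 (r = 0.96), and Tnfrsf1b most like Rara (r = 0.97). For Il10ra they were Palm (r = 0.96) and Cfap97 (r = 0.95), for Csf2ra Aldh9a1 and Hpcal1 (both r = 0.95) and for Il17ra Cdkal1 and Vps39 (both r = 0.85). Ifngr2 was most like Creb1 (r = 0.96) and Rps6kb1 (r = 0.95), and Tnfrsf1a most like Ppt2 and Snrpa (both r = 0.97). The libraries share mice and differ in the number of genes detected, so the values describe these libraries only.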

How the data were processed

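RNA of 20 libraries (10 mice, both subsets of each) was prepared with a low-input kit and sequenced on a NextSeq instrument. Per the methods, the authors aligned reads with STAR 2.4.0 to mm10, counted those on constitutive regions of FAST DB genes and normalized them with DESeq2. The deposited values are these normalized counts (a signal, not raw counts), and whole reads were recovered from them. limma 3.58.1 in R 4.3.3 was fitted to log2(normalized count + 1) of genes with a group mean of at least 10, with Benjamini-Hochberg adjustment over 17248 genes and a threshold of 0.05. Subsets were compared on within-mouse differences, since both libraries of a pair come from the same animal (median residual correlation 0.0338 within and -0.00319 between mice). Replicates are separate mice. Alternatives were other pseudocounts, filters, quantile normalization, detected genes as a covariate, no replicate block, each mouse left out and edgeR 4.0.16 on recovered reads. The edgeR fit without mouse 15 was added after seeing the data. Mice 12 to 14 were set apart after their detection was seen. A 0 allows up to 3 reads, for counting error only. All members were named, with list genes that passed or define a pathway. The members and lists were chosen with earlier results of these data known. Scripts were tested on simulated data. Some genes are not reported here.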

Additional observations from a re-analysis of the deposited data

Results flagged for a closer look

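Of 38 groups of 5 libraries examined with Dixon's test, 1 held a library apart from the others. Csf1r in the Ly6Chi vehicle library of mouse 11 was at 8062 normalized counts, the highest of its group. Chance sets apart about 1 in 20 groups.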

How the results depend on the processing

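Of 662 receptor values under alternatives, 631 kept their direction and side of the threshold, 9 lost the call (all Ifngr1 between subsets), 3 gained one and 19 changed sign, none of them called; the cause was not tested. Between subsets, Il17ra was -0.12 with a pseudocount of 10 and -0.74 to 0.78 with a mouse left out (below 0 without mouse 16, 17 or 18), Csf2rb -0.025 by edgeR and -0.39 (without mouse 12) to 0.59, and Il10ra -0.94 to 0.41 (without mouse 12). With Ac-6-FP in Ly6Chi MoMac, Il17ra was -0.76 with the covariate, Ifngr1 -0.052 without mouse 12 and Csf2ra -0.019 after quantile normalization. In Ly6Clo MoMac, Csf2ra was -0.26 after quantile normalization, and Tnfrsf1a -0.52 and Il10ra -1.20 with the covariate. For the comparison of the changes, Tnfrsf1a was 0.15 by edgeR and -1.62 to 0.85 (without mouse 13), Tnfrsf1b 0.14 after quantile normalization and -1.34 to 0.64 (without mouse 14), Csf2ra 0.24 after quantile normalization and Csf2rb -1.97 to 0.085 (without mouse 12). Genes called between subsets numbered 896, and 1702 with the covariate, 584 by edgeR, 467 by edgeR without mouse 15 and 642 to 1162 with a mouse left out. Receptors called numbered 1, and 3 with the covariate, 0 without a filter, 0 by edgeR with or without mouse 15 and 0 to 1 with a mouse left out. For Ac-6-FP in Ly6Chi MoMac, 13 genes became 5 without a filter, 4 with a filter at 100, 0 after quantile normalization, with the covariate or by edgeR, and 0 to 133 with a mouse left out (133 without mouse 11), and receptors called 0 to 1. In Ly6Clo MoMac, 9 genes became 2 with a pseudocount of 10, either filter setting or the covariate, 0 after quantile normalization or by edgeR, and 0 to 103 with a mouse left out (103 without mouse 11). The comparison of the changes called 0 genes, and 2 with a filter at 100, 1 after quantile normalization and 0 to 4 with a mouse left out. Without the replicate block, which ignores the pairing by mouse, 987 genes were called between subsets and 3 for the comparison of the changes, and Ifngr1 stayed at -0.58 (limma adjusted p = 0.0307). Detection limits Il17rc and the libraries of mice 12 to 14.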
